A study of Mus musculus with 20 samples.

Results

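The 6 genes described here are the mouse Cyp4a fatty acid hydroxylases Cyp4a10, Cyp4a12a, Cyp4a12b, Cyp4a14, Cyp4a31 and Cyp4a32. They are the rows of a liver gene expression table of 45306 genes that carry these symbols, and the family was chosen by the values of Cyp4a14 and Cyp4a31 in Sirt2-/- against Control livers. That contrast is therefore given as a description with no test. All 6 passed the filter on low counts, together with 15616 genes in all, and 5 other Cyp4a rows of the table, 2 genes and 3 pseudogenes, had a total of 0 counts over the 20 mice.

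The data were polyadenylated liver RNA of 20 C57BL/6 mice, 5 in each of 4 groups, and the study asked how loss of Sirt2, an NAD-dependent deacetylase, and repeated cold bear on liver energy metabolism. Control mice were wild-type and kept at room temperature, and CE mice were wild-type and exposed to 4 °C for 3 h per day over 3 weeks. Sirt2-/- mice carried a whole-body CRISPR deletion aimed at the middle exons of Sirt2 and were kept at room temperature, and Sirt2-/-/CE mice carried the deletion and had the same cold exposure. Mice were 5 weeks old at the start, each library came from 1 mouse, and the libraries held 35499796 to 53917339 counts on genes (median 41883741). Every Control library (44222098 to 53917339 counts) was deeper than every Sirt2-/- library (36004846 to 42142304).

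CYP4A enzymes are microsomal cytochromes P450 that hydroxylate the terminal carbon of fatty acids, the first step of omega oxidation. The products are oxidised further to dicarboxylic acids and shortened in peroxisomes. In mouse liver, Cyp4a10 and Cyp4a14 are textbook targets of PPARα, the fatty acid-sensing nuclear receptor that rises in activity in fasting, and Cyp4a12a, an arachidonic acid omega-hydroxylase, is known for its male-biased expression.

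The 6 genes lie in one cluster on chromosome 4 (GRCm38, 115299046 to 115621602, a span of 322557 bases). From low to high coordinate they are Cyp4a12a (115299046 to 115332815), Cyp4a12b (115411624 to 115439034), Cyp4a14 (115486200 to 115496142), Cyp4a10 (115518264 to 115533649), Cyp4a31 (115563649 to 115579015) and Cyp4a32 (115600969 to 115621602). Cyp4a14 is on the minus strand and the other members are on the plus strand. In the GENCODE annotation no exon of a member overlaps an exon of another gene on either strand.

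The sequences are shown because they set how well reads can be assigned within the family. The 60 coding bases that begin at the heme-binding signature, around the cysteine that holds the heme iron, fall in 3 forms, with capitals where a member differs from Cyp4a14:
Cyp4a14: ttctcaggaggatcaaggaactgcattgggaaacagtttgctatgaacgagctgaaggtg
Cyp4a12a: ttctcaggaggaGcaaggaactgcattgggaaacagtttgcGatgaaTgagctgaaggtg
Cyp4a12b: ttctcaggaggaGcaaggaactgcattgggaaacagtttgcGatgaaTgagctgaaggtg
Cyp4a10: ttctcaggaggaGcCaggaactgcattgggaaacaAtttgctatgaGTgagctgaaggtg
Cyp4a31: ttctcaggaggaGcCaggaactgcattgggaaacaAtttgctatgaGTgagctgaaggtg
Cyp4a32: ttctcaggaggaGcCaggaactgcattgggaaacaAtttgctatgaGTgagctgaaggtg
In each member the stretch runs from exon 11 into exon 12. In Cyp4a14 it covers 115489789 to 115489805 and 115487269 to 115487311 on the minus strand, and in Cyp4a10 it covers 115529502 to 115529518 and 115532531 to 115532573 on the plus strand. Cyp4a10, Cyp4a31 and Cyp4a32 are identical here and differ from Cyp4a14 at 5 bases, and Cyp4a12a and Cyp4a12b are identical and differ from it at 3.

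Over the whole coding sequence, Cyp4a10 was 96.6% identical to Cyp4a31 and 97.2% to Cyp4a32. Cyp4a12a and Cyp4a12b differed at 23 of 1527 coding bases. Cyp4a14 was the most distant member, at 75.8% to 76.8% identity to each of the others. Of all 100-base windows of the transcript, 35.8% of those of Cyp4a12a and 36.2% of those of Cyp4a12b were found unchanged in the other gene of the pair. The shares found in any other member were 12.7% for Cyp4a10, 8.2% for Cyp4a31, 20.1% for Cyp4a32 and 0% for Cyp4a14. Counts of Cyp4a14 are thus the least open to reads of its relatives, and the split between Cyp4a12a and Cyp4a12b and among Cyp4a10, Cyp4a31 and Cyp4a32 is uncertain, since the handling of reads with several matches is not given in the sources used here.

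The 60-base stretches within 1 exon with the most differences, added up over all pairs of a near-identical set, are shown next. Capitals mark where a member differs from the first of its set. In exon 2 the set of 3 reads:
Cyp4a10: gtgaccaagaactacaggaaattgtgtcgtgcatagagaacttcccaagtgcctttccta
Cyp4a31: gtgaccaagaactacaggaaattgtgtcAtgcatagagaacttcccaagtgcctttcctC
Cyp4a32: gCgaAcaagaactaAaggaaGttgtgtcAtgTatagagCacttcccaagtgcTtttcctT
These are coding bases 200 to 259, at chr4:115519640-115519699 for Cyp4a10, chr4:115565020-115565079 for Cyp4a31 and chr4:115602270-115602329 for Cyp4a32, all on the plus strand of GRCm38. Cyp4a31 differed from Cyp4a10 at 2 of these bases and Cyp4a32 at 9, so the stretch sets apart mainly Cyp4a32. Over all 1530 coding bases they differed from Cyp4a10 at 52 and 43. In exon 6 the pair reads:
Cyp4a12a: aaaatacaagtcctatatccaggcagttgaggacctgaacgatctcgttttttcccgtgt
Cyp4a12b: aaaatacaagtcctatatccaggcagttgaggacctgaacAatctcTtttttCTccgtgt
These are coding bases 630 to 689, at chr4:115326628-115326687 for Cyp4a12a and chr4:115432881-115432940 for Cyp4a12b, and they differ at 4 bases.

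Sirt2 itself was measured first as the check of the genotype labels. It lay at 21.3 ± 1.00 FPKM (SD, n = 5) in Control, 23.2 ± 1.76 in CE, 12.1 ± 2.54 in Sirt2-/- and 11.3 ± 1.17 in Sirt2-/-/CE livers, and every knockout mouse was below every wild-type mouse. The gene was thus lowered and not absent, with log2 fold changes of −0.94 (SE 0.15, adjusted p = 0.0145) for Sirt2-/- vs Control and −1.11 (SE 0.15, adjusted p = 0.0043) for Sirt2-/-/CE vs CE in edgeR's quasi-likelihood test. Counts are per gene, so the deleted exons could not be looked at. A number of mice stood apart in other genes, 4 of them in circadian clock genes (CE replicate 9, Sirt2-/- replicates 14 and 15 and Sirt2-/-/CE replicate 19) and 2 in sex-biased liver genes (Control replicate 3 and Sirt2-/-/CE replicate 20). Values without them are given beside several of the comparisons.

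Levels are given in FPKM, fragments per kilobase of gene, scaled to sequencing depth, so that genes of different length can be set side by side. In Control livers the order of the mean levels was Cyp4a10 (137 ± 40.2 FPKM, SD, n = 5), Cyp4a14 (91.9 ± 49.99), Cyp4a12a (81.3 ± 40.8), Cyp4a12b (24.5 ± 15.7), Cyp4a32 (19.1 ± 5.25) and Cyp4a31 (5.70 ± 2.28). The ranges of neighbours in this order overlapped from Cyp4a10 down to Cyp4a32, so those neighbours were not separated by their spread. Cyp4a12a, for example, lay at 18.3 to 129 FPKM and Cyp4a12b at 4.05 to 46.5 FPKM. Within each of the 20 mice, Cyp4a12a was 2.18 to 5.35 times as high as Cyp4a12b. Cyp4a31 was below Cyp4a32 in 19 of the 20 mice, and Cyp4a10 was 9.63 to 35.2 times as high as Cyp4a31. The order of Cyp4a31 and Cyp4a32 rests on the gene lengths used for FPKM. In counts scaled to library size alone (CPM, with TMM factors) it was the other way in some mice. Sirt2-/- replicate 12, for example, had 68.2 CPM of Cyp4a31 and 56.6 CPM of Cyp4a32.

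Cyp4a14, a hydroxylase strongly induced by PPARα ligands, had FPKM values of 118, 99.3, 151, 17.7 and 74.3 in the 5 Control mice and of 141, 33.0, 137, 69.6 and 208 in the 5 CE mice. In the Sirt2-/- mice the values were 544, 701, 502, 1285 and 979, and in the Sirt2-/-/CE mice 472, 305, 175, 369 and 222. Every Sirt2-/- liver was above every Control and CE liver. In FPKM every Sirt2-/- liver was also above every Sirt2-/-/CE liver, whereas in CPM, counts scaled to library size with TMM factors as in the tests, the lowest Sirt2-/- liver (1285 CPM) was below the highest Sirt2-/-/CE liver (1344 CPM). The Sirt2-/-/CE livers lay between, with 1 of them, at 175 FPKM, below the highest CE liver. In bulk liver, fewer cells that make a transcript and less of it per cell cannot be told apart.

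Cyp4a10, a fatty acid omega-hydroxylase, had FPKM values of 159, 175, 124, 72.5 and 152 in Control and of 267, 94.6, 65.7, 132 and 214 in CE mice. It reached 532, 523, 176, 360 and 298 in Sirt2-/- mice and 339, 234, 148, 295 and 148 in Sirt2-/-/CE mice. The lowest Sirt2-/- liver (175.7 FPKM) was just above the highest Control liver (174.6), and in CPM these groups overlapped, since the same Sirt2-/- mouse lay at 375 CPM and the highest Control mouse at 395 CPM.

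Cyp4a31, a close relative of Cyp4a10 at a low level, had FPKM values of 5.85, 7.97, 3.53, 3.25 and 7.90 in Control and of 15.4, 5.25, 6.82, 8.25 and 14.2 in CE mice. In Sirt2-/- mice it lay at 30.5, 28.2, 9.45, 16.5 and 18.2, and in Sirt2-/-/CE mice at 17.3, 14.2, 9.003, 18.2 and 9.01. All Sirt2-/- and all Sirt2-/-/CE livers were above all Control livers, and both overlapped the CE livers.

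Cyp4a32 moved less between groups. Its FPKM values were 21.8, 23.0, 12.4, 14.5 and 23.6 in Control, 31.7, 18.8, 9.64, 19.6 and 18.9 in CE, 51.7, 41.4, 19.2, 26.4 and 17.3 in Sirt2-/-, and 33.9, 35.4, 24.5, 40.1 and 10.9 in Sirt2-/-/CE mice. All 4 groups overlapped.

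Cyp4a12a was spread widely within every group. Its FPKM values were 79.1, 129, 18.3, 78.6 and 101 in Control, 99.03, 102, 53.6, 182 and 91.6 in CE, 143, 201, 117, 68.6 and 50.5 in Sirt2-/-, and 74.2, 101, 184, 185 and 6.53 in Sirt2-/-/CE mice. Control replicate 3 and Sirt2-/-/CE replicate 20 were the lowest of all 20 mice, and the groups overlapped. Cyp4a12b, whose coding sequence is nearly that of Cyp4a12a, was lowest in the same mice, at 4.05 and 1.31 FPKM, against 15.5 to 57.5 in the other 18. Its group means were 24.5 ± 15.7, 28.6 ± 13.1, 35.1 ± 17.5 and 29.2 ± 20.1 FPKM (SD, n = 5) in Control, CE, Sirt2-/- and Sirt2-/-/CE.

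**Figure D1:**
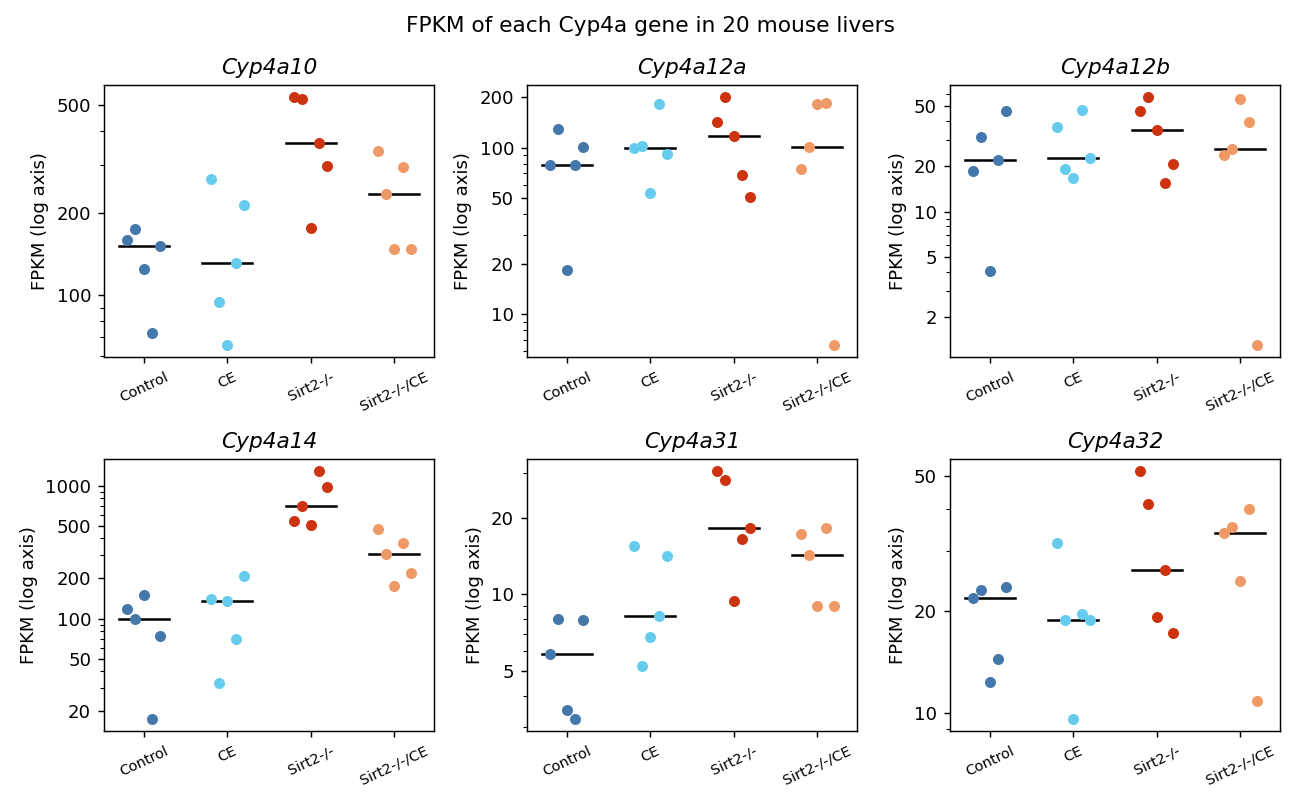
FPKM (log axis) of each Cyp4a gene in each of 20 mice, 5 per group. Each point is 1 mouse and each bar the group median. Cyp4a14 in the Sirt2-/- group runs from 502 to 1285 FPKM and clears all other groups, whereas Cyp4a12a and Cyp4a12b each have 1 very low Control mouse and 1 very low Sirt2-/-/CE mouse.

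The make-up of the family differed between groups along with its total. The summed FPKM of the 6 genes was 359 ± 100 in Control, 436 ± 150 in CE, 1383 ± 338 in Sirt2-/- and 723 ± 239 in Sirt2-/-/CE livers (SD, n = 5). Every Sirt2-/- liver, from 859 to 1773, exceeded every wild-type liver, whose highest value was 591. Cyp4a14 made up 25.1% ± 14.9 of the sum in Control, 26.97% ± 14.8 in CE, 57.5% ± 14.6 in Sirt2-/- and 43.2% ± 10.03 in Sirt2-/-/CE livers. Cyp4a12a and Cyp4a12b together held 30.1% ± 15.4, 32.4% ± 13.8, 11.7% ± 6.28 and 18.8% ± 14.5 in the same order.

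The leading gene of the family also differed. Cyp4a14 was the highest member in 1 of 5 Control, 1 of 5 CE, 5 of 5 Sirt2-/- and 4 of 5 Sirt2-/-/CE mice. Cyp4a10 led in 3 Control and 2 CE mice and in no knockout mouse, and Cyp4a12a led in the remaining mice. The ratio of Cyp4a14 to Cyp4a10 FPKM within a mouse was 0.244 to 1.21 in Control, 0.348 to 2.08 in CE, 1.02 to 3.57 in Sirt2-/- and 1.19 to 1.503 in Sirt2-/-/CE. These shares and ratios rest in part on the contrast that chose the family and are a description.

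**Figure D2:**
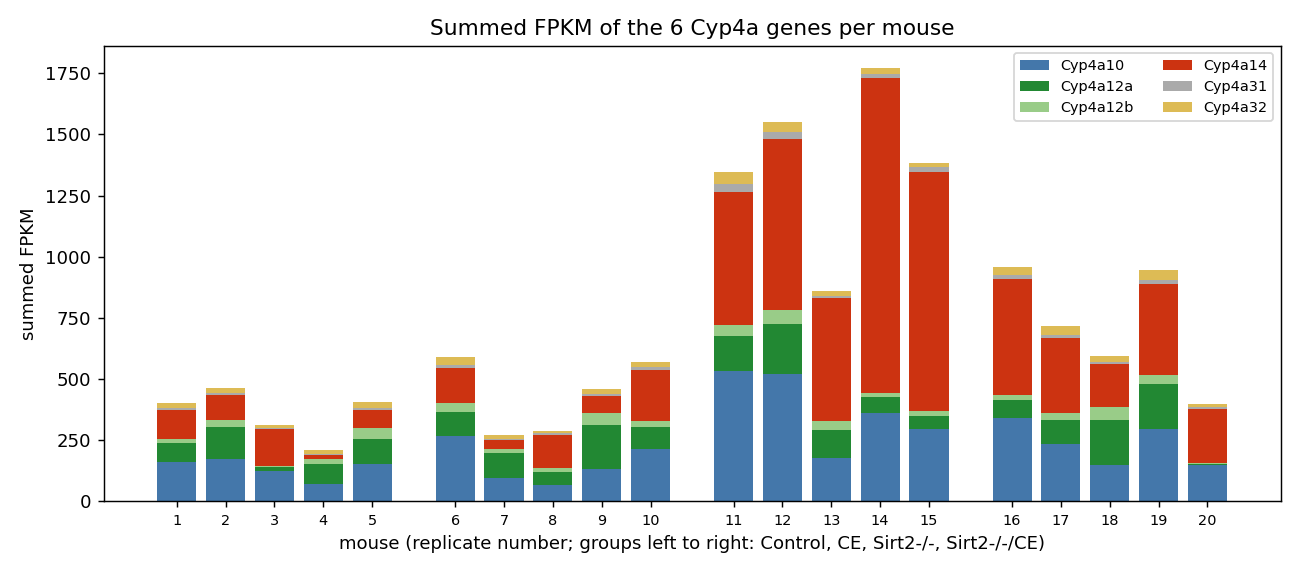
Summed FPKM of the 6 Cyp4a genes in each mouse, stacked by gene and ordered by group. The 5 Sirt2-/- bars, from 859 to 1773, stand above all wild-type bars, and Sirt2-/-/CE replicates 16 and 19, at 960 and 946, stand above the lowest of them.

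In Sirt2-/- against Control livers, the contrast that brought the family up, the fitted log2 fold changes were 2.97 (SE 0.51) for Cyp4a14, 1.73 (SE 0.36) for Cyp4a31 and 1.33 (SE 0.37) for Cyp4a10. They were 0.55 (SE 0.35) for Cyp4a32, 0.39 (SE 0.58) for Cyp4a12a and 0.39 (SE 0.62) for Cyp4a12b. On the linear scale Cyp4a14 was 7.84-fold and Cyp4a31 3.31-fold higher. No p is given for the members here, and nothing is read from the background of 0.89% of the 15616 genes that passed an adjusted p of 0.05 in this contrast. Without the 4 mice whose clock genes stood apart, 2 of them Sirt2-/-, the change was 2.56 for Cyp4a14, 1.90 for Cyp4a31, 1.48 for Cyp4a10, 0.85 for Cyp4a32, 0.81 for Cyp4a12a and 0.82 for Cyp4a12b. With 1 mouse left out at a time, Cyp4a32 ranged from 0.25 (without Sirt2-/- replicate 11) to 0.72, Cyp4a12a from 0.11 (without Sirt2-/- replicate 12) to 0.62 and Cyp4a12b from 0.11 (without Control replicate 3) to 0.74.

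Sirt2-/-/CE against CE compares the genotypes in 10 mice that the choice of the family did not use. Here Cyp4a14 was 2.51-fold higher (log2 fold change 1.33, SE 0.48, unadjusted p = 0.012), which did not pass adjustment over all genes (adjusted p = 0.617, edgeR). Of the 6 members, 0 were called, against a background of 0.0128% of genes (2 of 15616 called by edgeR, 31 by DESeq2, and 951 at an unadjusted p under 0.05). The log2 fold changes were 0.54 (SE 0.36) for Cyp4a10, 0.51 (SE 0.35) for Cyp4a32, 0.40 (SE 0.35) for Cyp4a31, −0.03 (SE 0.58) for Cyp4a12a and −0.05 (SE 0.62) for Cyp4a12b. The last pair changed sign with the scaling, to 0.07 and 0.05 with library size only. Without the 4 mice whose clock genes stood apart, the Cyp4a14 change was 1.08 (edgeR, unadjusted p = 0.0627).

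The genotype change of each member with cold, less its change without cold, was −1.65 (SE 0.67) on the log2 scale for Cyp4a14, −1.33 (SE 0.50) for Cyp4a31 and −0.79 (SE 0.51) for Cyp4a10. It was −0.42 (SE 0.82) for Cyp4a12a, −0.44 (SE 0.88) for Cyp4a12b and −0.05 (SE 0.49) for Cyp4a32. This difference holds the contrast that chose the family and was not tested.

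CE against Control asks what cold did in wild-type mice, and it shares its Control mice with the contrast that chose the family. Of the 6 members, 0 were called, against a background of 0.0064% (1 of 15616 genes called by edgeR, 169 by DESeq2, and 1674 at an unadjusted p under 0.05). The largest difference among members was that of Cyp4a31, at 1.77-fold higher in CE (log2 fold change 0.82, SE 0.35). Its Control values chose the family, so no p is given for it here. Cyp4a14 differed by 0.38 (SE 0.47), Cyp4a12a by 0.38 (SE 0.58), Cyp4a12b by 0.22 (SE 0.62), Cyp4a10 by 0.18 (SE 0.36) and Cyp4a32 by 0.03 (SE 0.35).

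Sirt2-/-/CE against Sirt2-/- asks the same of cold in knockout mice, and it shares its Sirt2-/- mice with the contrast that chose the family. Cyp4a14 was lower with cold, at 0.417 times its Sirt2-/- level (log2 fold change −1.26, SE 0.48). The high Sirt2-/- values of this gene chose the family, so no p is given for it here. Of the 6 members, 0 were called, against a background of 0% (0 of 15616 genes called by edgeR, 7 by DESeq2, and 1132 at an unadjusted p under 0.05). The other log2 fold changes were −0.60 (SE 0.36) for Cyp4a10, −0.51 (SE 0.35) for Cyp4a31, −0.22 (SE 0.62) for Cyp4a12b, −0.04 (SE 0.58) for Cyp4a12a and −0.01 (SE 0.35) for Cyp4a32. Without the 4 mice whose clock genes stood apart, the change was −0.93 for Cyp4a14, −0.74 for Cyp4a12a, −0.78 for Cyp4a12b and −0.45 for Cyp4a32.

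**Figure D3:**
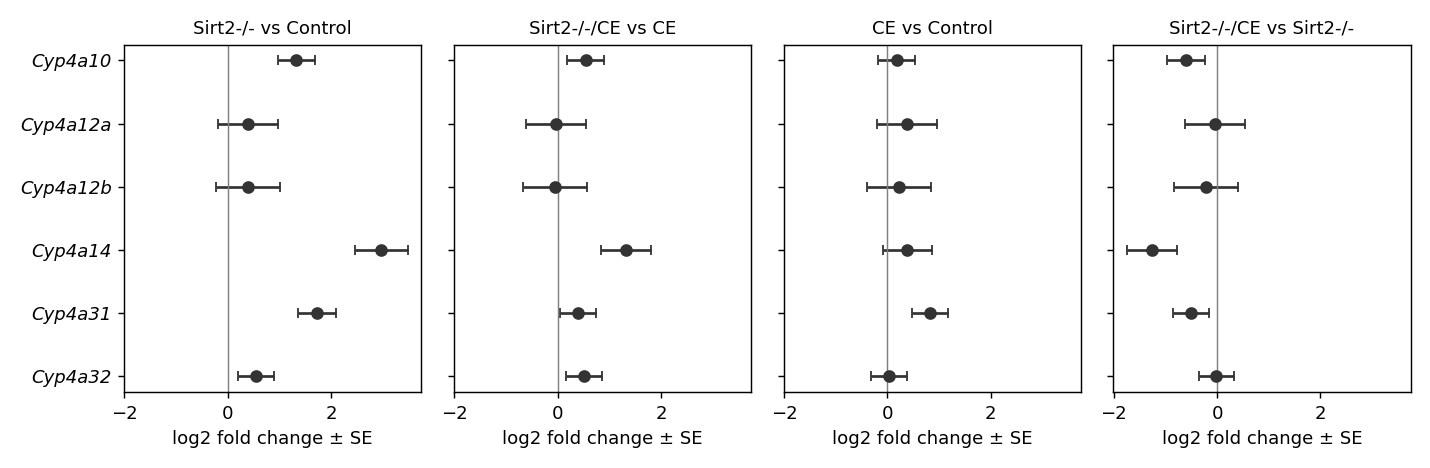
Log2 fold change of each Cyp4a gene in 4 comparisons of 5 against 5 mice, with bars of 1 standard error from edgeR. Cyp4a14 lies farthest from 0 in 3 panels, at 2.97, 1.33 and −1.26, and Cyp4a31 in CE vs Control, at 0.82.

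A clock score was taken as the mean centred log2 CPM of Dbp, Tef, Per3, Ciart and Nr1d2 less that of Arntl, Npas2 and Clock, which peak at the opposite time of day. It was 1.33 to 3.36 in Control, −4.52 to 2.42 in CE, −6.48 to 2.17 in Sirt2-/- and −4.69 to 0.865 in Sirt2-/-/CE mice. The 4 mice that stood apart lay below −4. Sirt2-/- replicates 14 and 15 also had the highest Cyp4a14 of all mice, at 1285 and 979 FPKM. Sirt2-/-/CE replicate 19 had 369 FPKM, the second highest of its group, and CE replicate 9 had 69.6 FPKM, within the Control range. Over all 20 mice, Cyp4a14 and the clock score had r = −0.39 and rho = −0.39, given with no p since the values hold the contrast that chose the family, and r was −0.06 without the 2 mice of the most extreme clock score. Among the 10 wild-type mice r was 0.24, and among the 10 knockout mice it was −0.44. Centred on the group means, r was −0.01 (permutation within groups, p = 0.946, adjusted over 27 correlations 0.978). With the clock score as a covariate, the fitted Sirt2-/- vs Control change was 2.85 for Cyp4a14 and 1.85 for Cyp4a31, against 2.97 and 1.73 without it.

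Cyp4a12a and Cyp4a12b followed the male-type liver genes from mouse to mouse. With the mean log2 level of 12 such genes, among them Hsd3b5 and Elovl3, Cyp4a12a had r = 0.92 and rho = 0.75 over 20 mice (permutation p = 1e-05, the smallest that 100000 permutations can give, and 0.0002, adjusted 9e-05 and 0.0011). Cyp4a12b had r = 0.90 and rho = 0.73 (permutation p = 2e-05 and 0.00029, adjusted 0.00014 and 0.0013). Without Control replicate 3 and Sirt2-/-/CE replicate 20, r was 0.75 and 0.68, and centred on the group means over all 20 mice it was 0.95 for both. These 2 mice had the lowest male-type means (−1.84 and −2.55, against −0.98 or more in the other 18). The female-type gene Cyp2b9 (120 and 205 CPM, against at most 56.4) was highest in them. Without both, the log2 fold change of Cyp4a12a was 0.12 in Sirt2-/- vs Control, 0.13 in CE vs Control, 0.27 in Sirt2-/-/CE vs Sirt2-/- and 0.27 in Sirt2-/-/CE vs CE, and 0 members were called in the 3 tested comparisons. The fit of all 20 mice called 0% to 0.0128% of all genes in those comparisons. Both mice carried Y-linked Ddx3y like all 20 (25.97 to 77.5 CPM), and Xist had at most 15 counts in any mouse. The reason for the female-type pattern was not tested. Cyp4a32 had r = 0.39 with the male-type mean over 20 mice, which was −0.008 without these 2, and Cyp4a14 had r = −0.41 and rho = −0.59, with r = −0.69 without them. Centred on the group means over 20 mice, r was 0.57 for Cyp4a32 (permutation within groups, p = 0.0166, adjusted 0.0498) and −0.40 for Cyp4a14 (permutation within groups, p = 0.104, adjusted 0.216). As lists, edgeR called 0 of 12 male-type, 0 of 9 female-type and 0 of 14 clock genes in each comparison, where it called 0% to 0.89% of all genes. At an unadjusted p under 0.05 there were 1 to 2 male-type and 0 to 3 clock genes, where all genes had 6.09% to 14.9%. The female-type genes had 1 of 9 in Sirt2-/- vs Control and 4 of 9 in CE vs Control, where all genes had 14.9% and 10.7%. They had 3 of 9 in each of Sirt2-/-/CE vs Sirt2-/- and Sirt2-/-/CE vs CE, where all genes had 7.25% and 6.09%. DESeq2 called 1 male-type gene in Sirt2-/- vs Control and 1 clock gene in each of Sirt2-/- vs Control and CE vs Control, where it called 607 and 169 of all genes. The female-type median was 1.42 in Sirt2-/-/CE vs Sirt2-/- and 2.28 in Sirt2-/-/CE vs CE, and the group holds replicate 20.

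Among the 15 pairs of members, the highest correlations over 20 mice were those of Cyp4a12a with Cyp4a12b (r = 0.97, rho = 0.89) and of Cyp4a10 with Cyp4a31 (r = 0.90, rho = 0.92), and without the 2 most extreme mice r was 0.85 in each. Pooled values of Cyp4a14 and Cyp4a31 hold the contrast that chose the family, so p is given only after centring on the group means, from permutation within groups. Centred, r was 0.97 for Cyp4a12a with Cyp4a12b (permutation p = 2e-05, adjusted 0.00014) and 0.91 for Cyp4a10 with Cyp4a31 (permutation p = 1e-05, adjusted 0.00014). Cyp4a32 followed members of both kinds, with centred r of 0.78 with Cyp4a10 (permutation p = 0.00018, adjusted 0.00097), 0.75 with Cyp4a31 (permutation p = 0.00045, adjusted 0.0020), 0.71 with Cyp4a12a (permutation p = 0.00278, adjusted 0.0101) and 0.70 with Cyp4a12b (permutation p = 0.00299, adjusted 0.0101). Its pooled r with Cyp4a12a and Cyp4a12b was 0.63 and 0.62, and 0.48 and 0.47 without Control replicate 3 and Sirt2-/-/CE replicate 20. With Cyp4a10 and Cyp4a31 its pooled r was 0.77 and 0.70, and 0.66 and 0.56 without Sirt2-/- replicates 11 and 12. Cyp4a14 had a pooled r of 0.78 with Cyp4a10 and of 0.77 with Cyp4a31, as high as Cyp4a10 with Cyp4a32 (0.77). Centred, these were 0.53 (permutation p = 0.027, adjusted 0.0729) and 0.50 (permutation p = 0.0385, adjusted 0.0944), and r was 0.08 with Cyp4a32 (adjusted permutation p = 0.910) and −0.22 with Cyp4a12a (adjusted permutation p = 0.525). Members other than Cyp4a14 share windows of sequence, and the part of shared reads in these correlations was not tested.

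**Figure D4:**
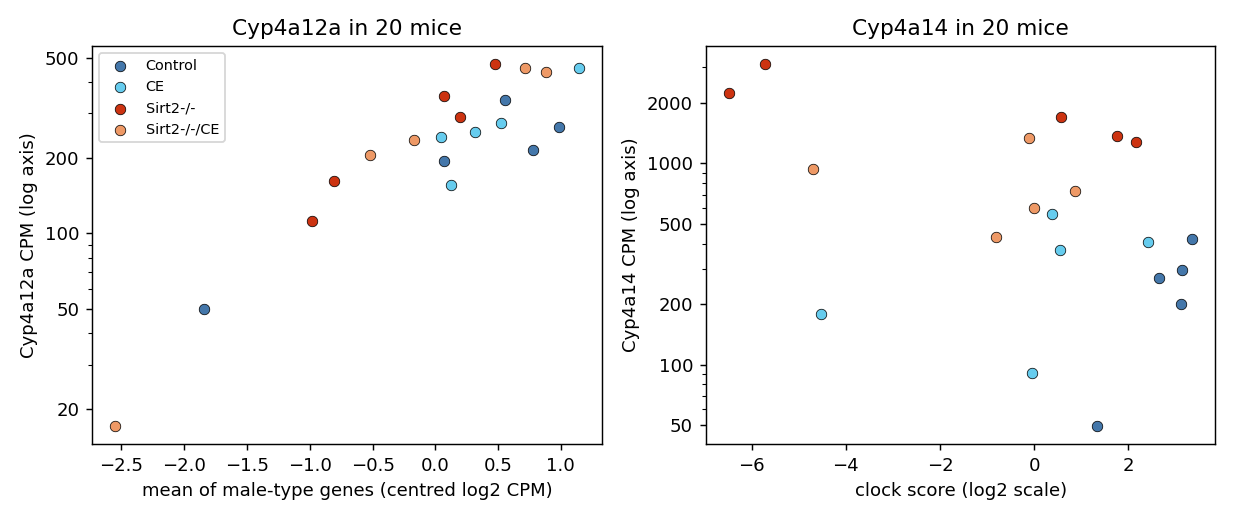
Left, Cyp4a12a CPM (log axis) against the mean of 12 male-type liver genes; right, Cyp4a14 CPM (log axis) against the clock score, 1 point per mouse and 1 colour per group. Cyp4a12a is higher in mice with a higher male-type mean (r = 0.92 over all 20 mice). For Cyp4a14, r over all mice was −0.39, and CE replicate 10 (563 CPM) lies above Sirt2-/-/CE replicate 18 (432 CPM).

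The genes whose log2 CPM was most like that of Cyp4a14 over the 20 mice were Retsat (r = 0.85), Renbp (r = 0.83), Acot1 (r = 0.83), Elac2 (r = 0.81) and Crat (r = 0.81). Retsat saturates retinol, Acot1 is a cytosolic acyl-CoA thioesterase and Crat is carnitine acetyltransferase. Centred on the group means their r with Cyp4a14 was 0.65, 0.71, 0.74, 0.55 and 0.64. Those most like Cyp4a12a were 4 major urinary protein genes, Mup10 (r = 0.92), Mup15 (r = 0.90), Mup19 (r = 0.87) and Mup17 (r = 0.86), which are near-identical copies whose reads are hard to split, and the male-type steroid gene Hsd3b5 (r = 0.86). These values are the highest of the tested genes of at least 1 mean FPKM other than the members, and are a description.

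The wider PPARα programme was looked at in 38 target and fatty acid oxidation genes, with the Cyp4a genes left out. In Sirt2-/- vs Control 22 were higher and 16 lower with a median log2 fold change of 0.13, against 0.02 over all genes. Only Hsdl2, a peroxisomal dehydrogenase-like protein, passed (log2 fold change 0.58, SE 0.12, adjusted p = 0.0373, edgeR), or 1 of 38 where 0.89% of all genes passed (139 of 15616). At an unadjusted p under 0.05 there were 7 of 38, where all genes had 14.9% (2329 of 15616). DESeq2 called 2 list genes and 607 genes in all. The edgeR call depended on the setting, with 0 to 2 list genes called under the alternatives, and it was lost without any of Control replicates 2, 3, 4 and 5, CE replicate 7 and Sirt2-/- replicates 12, 14 and 15. In Sirt2-/-/CE vs CE 31 of 38 were higher and 7 lower, with a median of 0.25 against 0.02 over all genes. In edgeR 0 passed, where 0.0128% of all genes did (6 at an unadjusted p under 0.05 where all genes had 6.09%, 0 by DESeq2). In CE vs Control 11 were higher and 27 lower (median −0.16, 5 at an unadjusted p under 0.05 where all genes had 10.7%) and in Sirt2-/-/CE vs Sirt2-/- 20 were higher and 18 lower (median 0.03, 2 at an unadjusted p under 0.05 where all genes had 7.25%), with 0 called by edgeR or DESeq2 in either. Of all genes, edgeR called 0.0064% and 0% in these 2 comparisons.

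Among the named PPARα targets, Acot1 stood at 12.3 ± 6.36 FPKM in Control, 9.49 ± 3.51 in CE, 25.6 ± 8.40 in Sirt2-/- and 23.4 ± 9.92 in Sirt2-/-/CE livers (SD, n = 5). Its log2 difference was 0.91 (SE 0.36, adjusted p = 0.232) without cold and 1.26 (SE 0.37, adjusted p = 0.458) with cold in edgeR. Vnn1, a pantetheinase, differed by 0.95 (SE 0.34, adjusted p = 0.175) and 0.93 (SE 0.34, adjusted p = 0.614). Other classical targets had values below 0 or near it. In Sirt2-/- vs Control the log2 differences were −0.40 (SE 0.32) for Cpt1a, the gate to mitochondrial oxidation, −0.42 (SE 0.40) for the fatty acid transporter Cd36 and 0.26 (SE 0.23) for the peroxisomal bifunctional enzyme Ehhadh. Pdk4, at 0.741 ± 0.385 FPKM in Control, and Fgf21, at 0.239 ± 0.239, were near the bottom of the measured range and differed by 0.24 (SE 0.45) and 0.60 (SE 0.95). The receptor itself, Ppara, differed by −0.33 (SE 0.53).

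**Figure D5:**
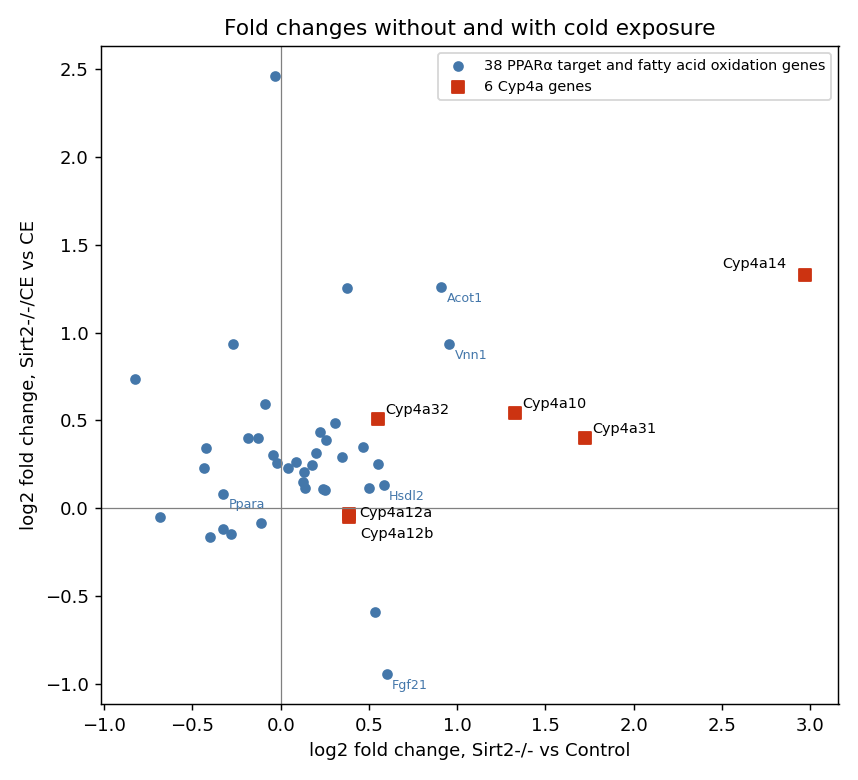
Log2 fold change in Sirt2-/-/CE vs CE against that in Sirt2-/- vs Control, which share no mice, for 38 PPARα target and fatty acid oxidation genes (circles) and the 6 Cyp4a genes (squares). Cyp4a14 lies at 2.97 and 1.33, to the right of all circles on the axis that chose the family. On the other axis the acyl-CoA thioesterase gene Acot3, named after its value was seen, lies higher at 2.46, and Acot1 and Acot2 lie beside Cyp4a14 at 1.26 each.

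Enzymes that work with or after the Cyp4a hydroxylases did not pass edgeR's test in any comparison, where 0% to 0.89% of all genes passed. In the list of 14, which holds the P450 reductase Por and the fatty aldehyde dehydrogenase Aldh3a2, 3 were higher and 11 lower in Sirt2-/- vs Control (median −0.30) and 0 of 14 were higher in CE vs Control (median −0.19), with 4 and 2 at an unadjusted p under 0.05, where all genes had 14.9% and 10.7%. Por differed by −0.30 (SE 0.40) and Aldh3a2 by 0.22 (SE 0.23) in Sirt2-/- vs Control. In Sirt2-/-/CE vs CE the list had 11 higher and 3 lower (median 0.11, 0 at an unadjusted p under 0.05 where all genes had 6.09%), and in Sirt2-/-/CE vs Sirt2-/- 9 higher and 5 lower (median 0.20, 2 at an unadjusted p under 0.05 where all genes had 7.25%). Of 15 other Cyp4 genes, 8 were tested and 0 passed in any comparison, with medians from −0.08 to 0.15. DESeq2 called 1 of the 14, the cytochrome b5 reductase Cyb5r3, in Sirt2-/- vs Control, where it called 607 of all 15616 genes. Cyb5r3 was named after its value was seen (log2 fold change −0.56, edgeR adjusted p = 0.0635). Of the other Cyp4 genes DESeq2 called 0 in any comparison, where it called 7 to 607 genes in all. At an unadjusted p under 0.05 the 8 other Cyp4 genes had 1, 2, 1 and 1 in Sirt2-/- vs Control, CE vs Control, Sirt2-/-/CE vs Sirt2-/- and Sirt2-/-/CE vs CE. All genes had 14.9%, 10.7%, 7.25% and 6.09% in the same order.

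The tissue label was checked against marker genes. The 5 hepatocyte markers summed to 80220 to 156800 CPM in every mouse, and 5 kidney markers, from the other organ rich in Cyp4a transcripts, summed to at most 1.48 CPM, with 1 of them at 0 in all mice. Kupffer cell and leukocyte markers summed to 72.7 to 251 CPM in Control, 66.4 to 297 in CE, 180 to 317 in Sirt2-/- and 229 to 310 in Sirt2-/-/CE mice. Endothelial markers summed to 39.1 to 175, 24.7 to 130, 76.6 to 219 and 131 to 241 CPM in the same order, and stellate cell markers to 80.7 to 187, 25.8 to 159, 76.2 to 222 and 134 to 194 CPM. Cholangiocyte markers summed to 36.3 to 81.5, 34.5 to 61.7, 30.2 to 44.2 and 21.5 to 38.4 CPM. Adipocyte markers summed to 2.61 to 16.8 CPM over all mice with 2 of 5 at 0 in all, and small intestine markers to 83.1 to 274 CPM with none at 0 in all. The part of these cell types in the Cyp4a levels was not tested.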

How the data were processed

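Polyadenylated liver RNA of each of the 20 mice made 1 library, read on an Illumina NovaSeq instrument. The authors deposited 1 table with raw counts and FPKM per gene and mouse, and their processing notes name mm10, which is GRCm38. The aligner, counter, strand setting and treatment of reads with several matches are not given in the sources used here. Groups came from genotype and treatment labels, and 9 lines of the table that hold no gene were dropped.

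Counts were tested with edgeR 4.0.16 (R 4.3.3; quasi-likelihood F-test, TMM scaling, filterByExpr with a minimum count of 10) in 1 fit of 4 groups, with Benjamini-Hochberg adjustment over 15616 genes at 0.05. The depth of 35499796 counts and more put 141 counts or more behind each Cyp4a value, and the 5 mice per group limit the precision more than counting error does. The script was tested on simulated data. The study's methods name a two-tailed Student's test for its data in general and none for the sequencing in particular, and a count test was used because the values are counts. The p-values set group differences against the spread between these mice and treat the mice as independent. The sources do not say whether mice shared cages, litters or sequencing runs. If such sharing followed the groups, the p-values would be too small. Alternatives were DESeq2 1.42.0, library-size scaling, no filter, at least 10 counts in every library, only the 2 groups compared, limma 3.58.1 voom, the clock score as covariate, limma on log2(FPKM + 1), and each mouse left out. Leaving out mice with a clock score below −4, or the 2 mice lowest in male-type genes, was added after seeing the data.

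Correlations over mice, 27 in all, used log2 CPM with a prior count of 2 and two-sided permutation tests with 100000 resamples. Coding sequences came from GENCODE vM21 transcripts and were aligned with biotite 1.4.0. The members and gene lists were chosen with earlier results of these data known. Genes named are the members, Sirt2, fixed pathway genes (some of them not reported here), list genes past the threshold, and the 5 genes of at least 1 mean FPKM most like Cyp4a14 and the 5 most like Cyp4a12a. One gene, Acot3, is in both the PPARα and the female-type list, and Aldh3a2 is in both the PPARα and the partner enzyme list.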

Additional observations from a re-analysis of the deposited data

Results flagged for a closer look

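Within groups of 5 mice, a value was singled out when its gap to the nearest mouse, divided by the range of the group on the log2 CPM scale, was above Dixon's 95% critical value of 0.71. Sirt2-/-/CE replicate 20 was singled out for Cyp4a12a, at 6.53 FPKM against 74.2 to 185 FPKM in the other 4 mice of its group (gap over range 0.756). The same mouse was singled out for Cyp4a12b, at 1.31 FPKM against 23.8 to 55.6 FPKM (0.785). These are 2 of 24 sets of a gene and a group, and chance alone would single out about 1 in 20. The same mouse was the highest of all in the female-type genes, and it had 222 FPKM of Cyp4a14 and 148 FPKM of Cyp4a10.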

How the results depend on the processing

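The number of Cyp4a genes called was 0 in CE vs Control, Sirt2-/-/CE vs Sirt2-/- and Sirt2-/-/CE vs CE under every alternative run, each mouse left out included. In the main fit edgeR called 0.0064%, 0% and 0.0128% of all 15616 genes in these comparisons, in that order. At such shares, 0 of 6 is not a result about the members. No paired analysis was possible because the groups share no replicate numbers. The count of PPARα list genes called in Sirt2-/- vs Control, 1 as reported, was 2 with DESeq2, with library-size scaling, with at least 10 counts in every library, with voom and with log2(FPKM + 1), and 0 with no filter, with only the 2 groups compared, with the clock score as covariate, without the 4 mice of a clock score below −4, and without the 2 mice lowest in male-type genes. With 1 mouse left out it ranged from 0 to 2, and edgeR as reported called 0.89% of all 15616 genes. In CE vs Control voom called 1 list gene against 0. The cause was not tested.

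Values near 0 changed sign. In CE vs Control the log2 fold change of Cyp4a32 was −0.0039 with voom and −0.0837 without the 2 mice lowest in male-type genes, where that of Cyp4a12b was −0.0554. With 1 mouse left out the values ranged from −0.0935 to 0.36 for Cyp4a10, −0.0553 to 0.58 for Cyp4a12b and −0.20 to 0.18 for Cyp4a32. In Sirt2-/-/CE vs Sirt2-/- that of Cyp4a32 was 0.0126 with the clock covariate, and without the 2 mice lowest in male-type genes it was 0.20, with 0.27 for Cyp4a12a and 0.10 for Cyp4a12b. With 1 mouse left out the values ranged from −0.31 to 0.27 for Cyp4a12a, −0.56 to 0.10 for Cyp4a12b and −0.19 to 0.29 for Cyp4a32. In Sirt2-/-/CE vs CE those of Cyp4a12a were 0.0722 with library-size scaling, 0.0369 with voom and 0.27 without the 2 mice lowest in male-type genes, and those of Cyp4a12b 0.0469 with library-size scaling, 0.26 without those 2 mice and 0.0269 without the 4 mice of a low clock score. With 1 mouse left out they ranged from −0.30 to 0.27 for Cyp4a12a and −0.39 to 0.26 for Cyp4a12b. The correlation of Cyp4a12b with Cyp4a14, r = −0.03, was 0.04 with log2(FPKM + 1) and 0.037 with library-size scaling, and that of Cyp4a31 with the male-type mean, r = −0.003, was 0.004 with library-size scaling. The cause was not tested.

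Cyp4a14 kept its direction in all 4 comparisons under every alternative and with each mouse left out, at 2.56 to 3.31 in Sirt2-/- vs Control, 0.0855 to 0.66 in CE vs Control, 1.06 to 1.62 in Sirt2-/-/CE vs CE and −1.52 to −0.93 in Sirt2-/-/CE vs Sirt2-/-. Its adjusted p (edgeR, DESeq2 or limma, by setting) in Sirt2-/-/CE vs CE was 0.239 to 0.912 over the alternatives.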
